A study of Mus musculus with 8 samples.

Results

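The Slc25 family of mitochondrial solute carriers was examined in mouse colon tumors and normal colon. Members were chosen by name: every probe whose gene name in the array files begins with Slc25a and a number. This gave 71 probes for 42 genes, of 41174 probes for 27597 genes on the array. Of these genes, 41 were bright enough to be tested, by 62 of the 71 probes. The exception was Slc25a21, a carrier of oxodicarboxylates, whose probes lay below the detection limit. Carriers that the files list under other names, among them Slc25a47, Slc25a48, Slc25a51 and Slc25a54, are not members.

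RNA of 8 distal colon samples was hybridised to 8 one-colour Agilent arrays. The 4 tumors were colon adenomas of genotype Tcf4Het ApcHet, and the 4 normals were normal colon of genotype TCF4WT ApcHet. All mice were C57BL/6 and labelled adult, and the protocol describes 4 Tcf4HetApcMin and 4 Tcf4WTApcMin littermates and the distal 2.5 cm of the colon. Both groups therefore carried 1 mutant copy of Apc, while the tumors also lacked 1 copy of Tcf4, so tissue state and Tcf4 genotype cannot be told apart in any value given here. Each sample was whole tissue, so fewer cells of a type and less RNA per cell cannot be told apart.

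Slc25 proteins sit mostly in the inner mitochondrial membrane and exchange metabolites, nucleotides, cofactors and ions between the cytosol and the matrix. They feed the respiratory chain with ADP and phosphate, move reducing equivalents as aspartate, glutamate and malate, and bring in fatty acids as acylcarnitines. In normal colon, surface colonocytes are known for oxidising fatty acids, butyrate above all, in their mitochondria.

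The deposited value table, on a log2 scale with all columns normalised to the same distribution, supplied the levels below. A log2 level compares the same gene between samples and not different genes. Only 4 of the 8 columns could be traced to a scanner file, and of these only tumor 1 to the file filed under its own sample. The column labelled tumor 2 matched the file of normal 4, normal 1 that of normal 2, and normal 2 that of normal 3. Groups follow the column labels throughout. With the scanner files grouped as filed instead, 0 Slc25 genes passed the test in limma (2 at an unadjusted p under 0.05 with a 75th percentile scaling, 3 with normexp and quantile normalisation). Under those scalings Slc25a24 and Slc25a33, both called in the table, had the opposite sign, and Slc25a5 had it under the first. The column labelled normal 3 also stood apart: over 21566 genes it correlated with the tumors at 0.947 to 0.966 and with the other normals at 0.872 to 0.941. Normal 1 was about as close to the tumors (0.925 to 0.956) as to the other normals (0.938 to 0.941). Only normals 2 and 4 were close to each other (0.987). The Slc25 levels of normal 3 lay outside the range of the other normals for 33 of 41 genes and within the tumor range for 13. Counts are therefore given with and without normal 3. The same shares over all genes were not computed. Normal 3 was singled out for its likeness to the tumors, so leaving it out favours differences between the groups. Adjusted p values without it are therefore descriptions and not separate tests.

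The labelled tissue was compared with marker lists. Absorptive colonocyte markers averaged log2 levels of 12.43 to 13.85 in tumors and 15.05 to 15.44 in normals, and 9 of 12 were lower in tumors in the limma fit over all genes (6 with the sample number as a block). General epithelial markers averaged 17.14 to 17.31 in tumors and 17.33 to 17.75 in normals. Neutrophil markers averaged 10.88 to 12.96 in tumors and 6.49 to 9.89 in normals, with 6 of 7 higher in tumors (5 with the block). Macrophage markers averaged 12.33 to 12.45 in tumors and 10.65 to 11.65 in normals, with 5 of 8 higher. Over all genes 7.0% were higher in tumors and 7.54% lower (3.6% and 5.03% with the block). No marker of these 4 lists was below the detection limit on all arrays. The part of these cell types in the Slc25 results was not tested.

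Of the 41 Slc25 genes tested, 9 changed between tumors and normals (22.0%), against 14.5% of all genes tested (limma, adjusted p under 0.05). In tumors 2 were higher, Slc25a33 and Slc25a45, a share of 4.88% against 7.0% of all genes. The other 7 were lower: Slc25a5, Slc25a12, Slc25a13, Slc25a16, Slc25a20, Slc25a24 and Slc25a36. They made up 17.1% of the members tested, against 7.54% of all genes. Each of the 9 had the same sign in 4 of 4 pairs of equally numbered samples, as it must where the groups do not overlap. The groups did not overlap for 12 members (29.3%, against 23.8% of all genes), 2 of them higher in tumors and 10 lower (11.9% of all genes in each direction). Differences, tumor minus normal, ran from -1.12 to 1.47 on the log2 scale, the highest against normals of which 2 were below the detection limit, with 22 above and 19 below 0. The family's median difference was 0.03, against 0.15 over all genes.

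**Figure D1:**
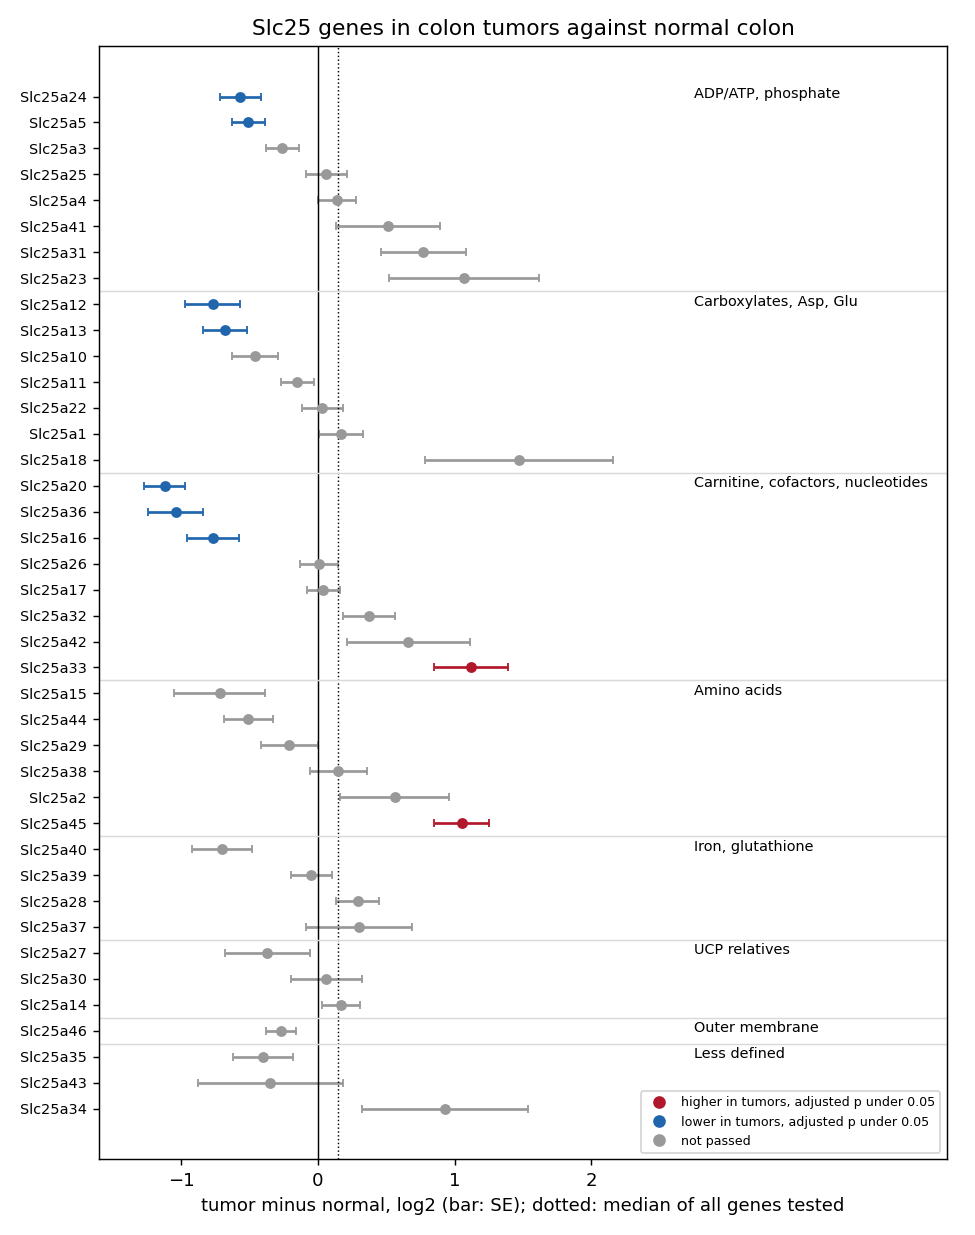
Log2 difference, tumor minus normal, of 40 Slc25 genes tested, with bars for the standard error and genes grouped by role. The 9 called genes are marked: Slc25a33 and Slc25a45 lie above 0 and the other 7 below, between -1.12 and -0.51.

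The calls depended on single samples. With the sample number as a block, 3 members passed (7.32%, against 8.64% of all genes): Slc25a20, Slc25a36 and Slc25a45, the last higher and the others lower in tumors (3.6% and 5.03% of all genes). Without normal 3, 18 passed (43.9%, against 51.5% of all genes), 8 higher and 10 lower in tumors (31.7% and 19.8% of all genes). They included all 9 named above, with differences of -1.20 to -0.56 for the 7 lower and 1.19 and 1.29 for the 2 higher. Without tumor 3, 0 passed (11 at an unadjusted p under 0.05), against 0.0971% of all genes. Without tumor 4, 5 passed (12.2%, against 8.61% of all genes), 2 higher and 3 lower. Without tumor 1, tumor 2, normal 1, normal 2 or normal 4, 1 passed (2.44%, against 0.739% to 3.95% of all genes), and it was Slc25a20 each time. With only the 4 traced columns, 0 passed, as of all genes (10 members at an unadjusted p under 0.05). Each of the 9 genes kept its direction in all of these fits, which had to follow because their groups did not overlap.

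Promoter sequences from RefSeq (GRCm38.p6, 250 bases before to 50 after the start) matched 32 of the 42 members and 9 of the 9 called. Shown are called genes whose promoter held a searched motif, in capitals, because they include the carrier with the lowest adjusted p and both pyrimidine nucleotide carriers, which moved in opposite directions. Slc25a20 (chr9:108661886-108662185, plus strand) holds the ETS-type motif CCGGAAGT. Slc25a36 (chr9:97110992-97111291, minus strand) holds the E-box CACGTG and the CREB and ATF motif TGACGTCA. Slc25a33 (chr4:149774218-149774517, minus strand) and Slc25a13 (chr6:6217124-6217423, minus strand) hold CACGTG.
Slc25a20: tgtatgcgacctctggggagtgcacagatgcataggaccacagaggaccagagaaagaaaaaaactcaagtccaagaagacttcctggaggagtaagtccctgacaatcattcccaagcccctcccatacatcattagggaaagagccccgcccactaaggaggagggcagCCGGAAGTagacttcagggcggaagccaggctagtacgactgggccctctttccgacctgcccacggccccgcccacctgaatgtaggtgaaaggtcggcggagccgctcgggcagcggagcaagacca
Slc25a36: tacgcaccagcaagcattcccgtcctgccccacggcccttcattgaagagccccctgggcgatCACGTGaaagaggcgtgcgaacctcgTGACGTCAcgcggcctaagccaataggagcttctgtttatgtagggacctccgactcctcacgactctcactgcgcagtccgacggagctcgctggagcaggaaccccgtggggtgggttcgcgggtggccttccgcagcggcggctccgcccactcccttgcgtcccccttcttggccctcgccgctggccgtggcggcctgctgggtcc
Slc25a33: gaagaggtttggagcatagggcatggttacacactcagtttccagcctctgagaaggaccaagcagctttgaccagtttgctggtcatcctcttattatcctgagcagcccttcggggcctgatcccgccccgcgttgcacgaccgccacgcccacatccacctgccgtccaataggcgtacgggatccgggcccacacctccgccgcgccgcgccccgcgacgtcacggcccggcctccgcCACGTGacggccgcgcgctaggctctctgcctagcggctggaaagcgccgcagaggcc
Slc25a13: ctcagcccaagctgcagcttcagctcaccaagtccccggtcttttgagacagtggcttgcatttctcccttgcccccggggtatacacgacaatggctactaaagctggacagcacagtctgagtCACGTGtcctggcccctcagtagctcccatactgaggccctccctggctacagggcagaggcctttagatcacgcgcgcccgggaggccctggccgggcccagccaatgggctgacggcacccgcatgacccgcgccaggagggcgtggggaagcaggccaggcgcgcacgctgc

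In all, 6 motifs were searched on both strands. CACGTG occurred for 7 of the 32 members with a promoter sequence, 3 of them called, and in 7.15% of all 32851 promoters. It stood in the promoter of Slc25a33, which was higher in tumors, and in those of Slc25a13 and Slc25a36, which were lower. TGACGTCA occurred in Slc25a25 and Slc25a36 and in 1.79% of all promoters, and CCGGAAGT in 3.89% of them. Members were counted by gene and all promoters by sequence. A gene can have more than 1 promoter sequence, so member counts and these shares are in unlike units. TCAAGGTCA, the extended estrogen-related receptor element (0.423%), the direct repeat bound by PPAR and RXR (0.0396%) and the NRF1 palindrome (0.971%) had 0 matches in the members' windows. None of the motifs searched overlapped another in the promoters printed. A match is a description of these letters and not a binding site.

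Carnitine, cofactor and nucleotide carriers held 4 of the 9 called genes. Of the 9 tested, 1 was higher in tumors and 3 were lower (7.0% and 7.54% of all genes), with a median difference of 0.04. Groups by role hold few genes, so counts within them carry little weight. Slc25a20, the carnitine/acylcarnitine carrier that brings long-chain fatty acids into the matrix, fell in tumors and had the lowest adjusted p of the family. Its log2 level was 13.66, 13.32, 13.39 and 13.61 in tumors 1 to 4, against 14.91, 14.53, 14.54 and 14.47 in normals 1 to 4. Every tumor lay below every normal, and normal 1 was the highest sample. The mean was 13.49 ± 0.17 in tumors and 14.61 ± 0.20 in normals (SD, n = 4 each). The difference was -1.12 ± 0.15 (SE, limma adjusted p = 0.0147), 2.17-fold lower in tumors, and within pairs it ran from -1.25 to -0.87. Without normal 3 it was -1.14 (adjusted p = 0.00447), and without tumor 3 it was -1.08 and did not pass (adjusted p = 0.0589). The probe lies at chr9:108540472-108540531 (mm8).

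Slc25a36 and Slc25a33 both carry pyrimidine nucleotides, which mitochondria need for their own DNA and RNA, and they changed in opposite directions. Slc25a36 had log2 levels of 9.19, 9.21, 9.12 and 9.43 in tumors, against 10.21, 10.38, 9.82 and 10.72 in normals. The tumors were close together and all lower, and normal 3 was the lowest normal. The difference was -1.04 ± 0.20 (SE, limma adjusted p = 0.0220). A second probe of the gene differed by -1.54 ± 0.31 (limma over all probes, adjusted p = 0.0242). The level probe lies at chr9:96884304-96884363 (mm8).

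Slc25a33 had log2 levels of 13.85, 14.03, 13.74 and 13.30 in tumors, against 12.78, 12.01, 13.11 and 12.53 in normals. All tumors were higher than all normals, with tumor 4 the lowest tumor and normal 3 the highest normal, close to each other. The difference was 1.12 ± 0.27 (SE, limma adjusted p = 0.0344, and 0.0665 with the sample number as a block). Its second probe differed by 0.90 ± 0.21 (limma over all probes, adjusted p = 0.0355, and 0.0647 with the block). The level probe lies at chr4:148588404-148588463 (mm8).

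Slc25a16, which has been linked to the supply of coenzyme A although its substrate is not settled, was lower in tumors. Its log2 levels were 11.10, 10.61, 10.71 and 10.94 in tumors, against 11.95, 11.69, 11.33 and 11.47 in normals. The groups did not overlap, with tumor 1 the highest tumor and normal 3 the lowest normal. The difference was -0.77 ± 0.19 (SE, limma adjusted p = 0.0356, and 0.0512 with the block). The probe lies at chr10:62341189-62341248 (mm8).

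Other carriers of these substrates did not pass. Slc25a32, the folate and FAD carrier, had log2 levels of 11.64, 11.68, 11.45 and 11.22 in tumors, against 11.44, 10.99, 11.28 and 10.81 in normals. The groups overlapped, and the difference was 0.37 ± 0.19 (limma adjusted p = 0.199). Slc25a26, which imports S-adenosylmethionine, differed by 0.01. Its second probe differed by 0.40 ± 0.14 without overlap of the groups and did not pass (limma over all probes, adjusted p = 0.104). Slc25a42, a coenzyme A carrier, differed by 0.66 ± 0.45 (limma adjusted p = 0.289), and by 1.09 without normal 3 (0.0186). In normal 1 its level of 7.58 lay under that column's own value for dim probes, 7.70, so these sizes are not well measured. Slc25a17 is a peroxisomal cofactor carrier, and its 3 probes differed by 0.04, 0.08 and -0.33, with signs that disagreed.

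**Figure D2:**
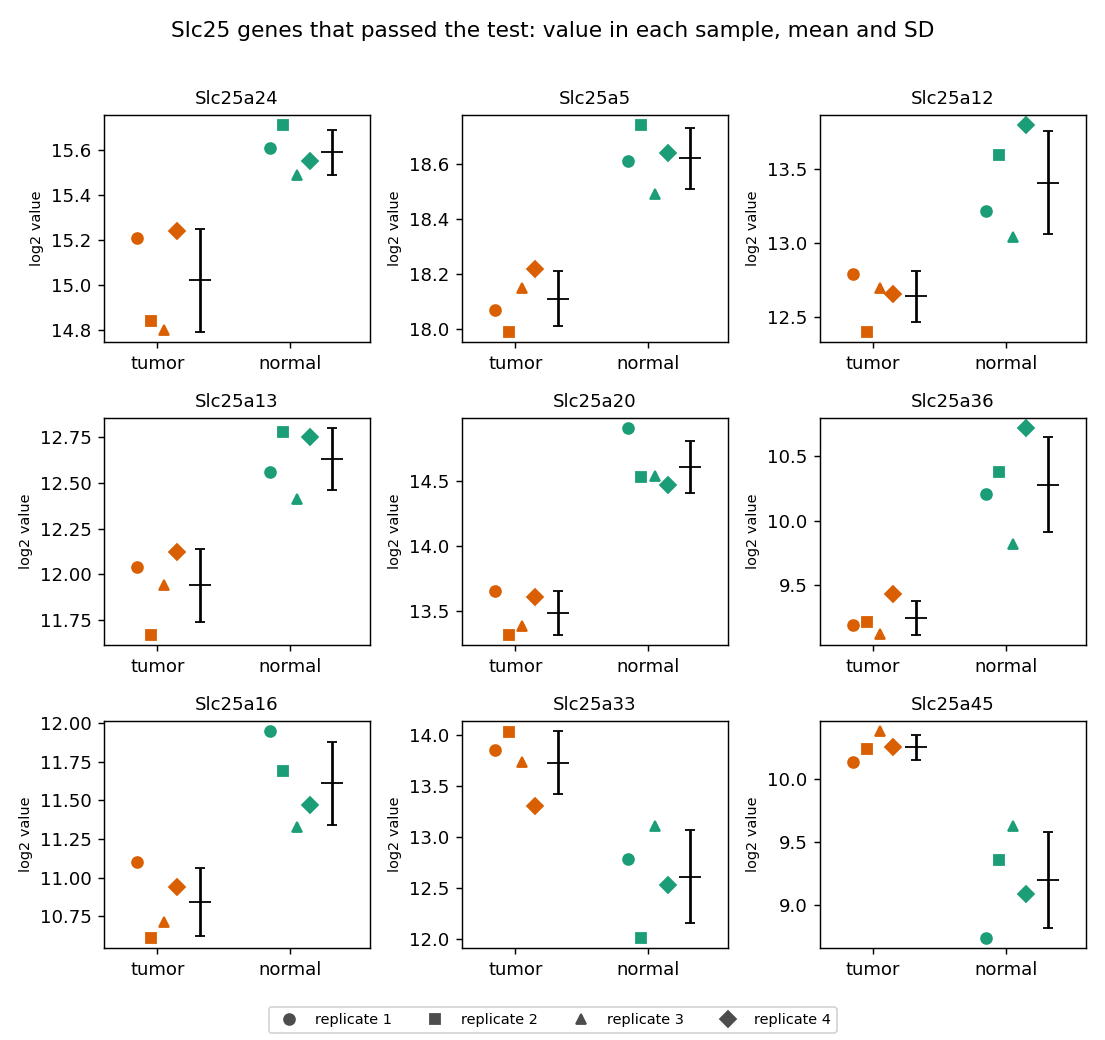
Log2 level in each of the 4 tumors and 4 normals for the 9 called Slc25 genes, 1 panel per gene, with the tumors on the left and a black bar for each group's mean and SD. The groups do not overlap in any of the 9 panels, and normal 3 is the normal nearest to the tumors for several genes, among them Slc25a36 at 9.82 and Slc25a33 at 13.11.

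Among the ADP/ATP and phosphate carriers, 2 of 8 were lower in tumors and 0 higher (7.54% and 7.0% of all genes). The median difference was 0.10. Slc25a5, an ADP/ATP carrier that exports ATP from the matrix, was lower in tumors. Its log2 levels were 18.07, 17.99, 18.15 and 18.22 in tumors, against 18.61, 18.74, 18.49 and 18.64 in normals. All tumors were lower, and both groups were tight. The difference was -0.51 ± 0.12 (SE, limma adjusted p = 0.0340, and 0.0776 with the block). Slc25a5 has close relatives and processed copies in the genome, and a single probe, at chrX:33229925-33229984 (mm8), cannot tell them apart with certainty.

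Slc25a24, a calcium-regulated carrier that exchanges ATP-Mg for phosphate and so sets the matrix pool of adenine nucleotides, was lower in tumors. Its log2 levels were 15.21, 14.84, 14.80 and 15.24 in tumors, against 15.61, 15.71, 15.49 and 15.55 in normals. The groups did not overlap, and the tumors were more spread than the normals. The difference was -0.57 ± 0.15 (SE, limma adjusted p = 0.0460, and 0.0801 with the block). Its probes differed in call when all probes were fitted: the level probe, at chr3:109296404-109296463 (mm8), had an adjusted p of 0.0501, and the other differed by -1.01 ± 0.20 (limma adjusted p = 0.0226).

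Other carriers of this role did not pass. Slc25a4, the ADP/ATP carrier typical of heart and skeletal muscle, had log2 levels of 16.72, 16.84, 16.93 and 16.72 in tumors, against 16.56, 16.63, 16.51 and 16.93 in normals. Its highest samples were tumor 3 and normal 4, which were also the highest of their groups for skeletal muscle markers (mean log2 levels 11.70 and 13.88). The difference was 0.14 ± 0.14 (limma adjusted p = 0.443), and the part of muscle in it was not tested. A second, dimmer probe differed by 0.78 ± 0.27 (limma over all probes, adjusted p = 0.0945). Slc25a3, the phosphate carrier, had 16.35, 16.37, 16.35 and 16.47 in tumors, against 16.64, 16.66, 16.50 and 16.79 in normals. Its groups did not overlap, but the difference of -0.26 ± 0.12 did not pass (limma adjusted p = 0.169). Its dimmer probes differed by -2.21 ± 0.87 and -1.52 ± 0.47 and did not pass (limma over all probes, adjusted p = 0.128 and 0.0696). The first of these was below the detection limit in 2 tumors and in normal 3, so the size of its difference is not well measured.

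Slc25a25, a calcium-regulated relative of Slc25a24, had log2 levels of 12.53, 12.47, 12.59 and 12.44 in tumors, against 12.65, 12.26, 12.63 and 12.25 in normals. The tumors lay inside the range of the normals. Its 3 probes disagreed in sign, with differences of 0.06, 0.10 and -1.41 ± 0.44 (limma over all probes, adjusted p = 0.0736 for the last). Slc25a23, the third calcium-regulated member of this branch, differed by 1.07 ± 0.55 (limma adjusted p = 0.201) and by 1.61 without normal 3 (limma adjusted p = 0.0104). Slc25a31, an ADP/ATP carrier best known from testis, differed by 0.77 and did not pass, and by 1.06 without normal 3 (limma adjusted p = 0.00773). In normal 1 the levels of Slc25a23 (7.60) and Slc25a31 (6.20) lay under that column's own value for dim probes, 7.70. The sizes of their differences are therefore not well measured.

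Carriers of carboxylates, aspartate and glutamate had 2 of 7 tested genes lower in tumors and 0 higher (7.54% and 7.0% of all genes). Their median difference was -0.15. Both called genes are the calcium-regulated aspartate/glutamate carriers of the malate-aspartate shuttle, which moves reducing equivalents into mitochondria. Slc25a12, also called aralar, had log2 levels of 12.79, 12.40, 12.70 and 12.66 in tumors, against 13.22, 13.60, 13.04 and 13.80 in normals. All tumors were lower. Normals 2 and 4 were the highest, as they were for smooth and skeletal muscle markers. Smooth muscle means were 13.96, 13.61, 13.76 and 14.58 in tumors and 14.13, 15.38, 13.20 and 15.29 in normals. Skeletal muscle means were 7.66, 7.43, 11.70 and 8.66 in tumors and 7.37, 12.28, 9.95 and 13.88 in normals. The part of either muscle in the result was not tested. The difference was -0.77 ± 0.20 (SE, limma adjusted p = 0.0416, and 0.0816 with the block). A second probe was below the detection limit in all 4 tumors (mean 5.08, against 7.27 in normals; limma over all probes, adjusted p = 0.0212). It was kept for testing only through the normals, so its call is no separate support. In normal 1 its level of 7.53 lay under that column's own value for dim probes, 7.70, so the size of its difference is not well measured. The level probe lies at chr2:71075761-71075820 (mm8).

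Slc25a13, also called citrin, had log2 levels of 12.04, 11.67, 11.94 and 12.12 in tumors, against 12.56, 12.78, 12.41 and 12.75 in normals. The groups did not overlap, with tumor 2 the lowest sample. The difference was -0.68 ± 0.16 (SE, limma adjusted p = 0.0308, and 0.0664 with the block). The probe lies at chr6:5991482-5991541 (mm8). The malate arm of the same shuttle, Slc25a11, the oxoglutarate carrier, differed by -0.15 and did not pass (limma adjusted p = 0.332).

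Slc25a10, the dicarboxylate carrier, had log2 levels of 14.25, 13.99, 14.18 and 14.15 in tumors, against 14.88, 14.42, 14.80 and 14.31 in normals. Every tumor was lower than every normal, yet the difference of -0.46 ± 0.17 did not pass (limma adjusted p = 0.104). Slc25a1, the citrate carrier that supplies cytosolic acetyl units for lipid synthesis, had 13.07, 12.95, 12.99 and 13.02 in tumors, against 12.99, 12.62, 13.14 and 12.59 in normals. The tumors lay inside the range of the normals, and the difference was 0.17 ± 0.16 (limma adjusted p = 0.416).

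Slc25a22, a glutamate carrier, had log2 levels of 10.51, 10.63, 10.21 and 10.49 in tumors, against 10.38, 10.25, 10.60 and 10.48 in normals. The groups overlapped throughout, and the difference was 0.03 ± 0.15 (limma adjusted p = 0.871). Slc25a18, the second glutamate carrier, had 7.03, 6.57, 7.43 and 6.82 in tumors, against 3.71, 5.22, 7.32 and 5.72 in normals. Normals 1 and 2 were below the detection limit, normal 3 was as high as the tumors, and the fitted difference of 1.47 ± 0.69 did not pass (limma adjusted p = 0.178). Without normal 3 it was 2.08 and passed (limma adjusted p = 0.0157), but then only normal 4 was above the limit, so the size of either difference is not well measured.

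Among the amino acid carriers, 1 of 6 was higher in tumors and 0 were lower (7.0% and 7.54% of all genes). The median difference was -0.03. Slc25a45, a relative of the carnitine and basic amino acid carriers, had log2 levels of 10.13, 10.24, 10.38 and 10.25 in tumors, against 8.74, 9.36, 9.63 and 9.09 in normals. All tumors were higher and close together, while the normals spread, with normal 3 the highest of them. The difference was 1.05 ± 0.20 (SE, limma adjusted p = 0.0215), 2.07-fold higher in tumors. The probe lies at chr19:5885329-5885388 (mm8).

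Slc25a15, the ornithine carrier that links the cytosolic and matrix steps of the urea cycle, had log2 levels of 8.15, 9.35, 8.07 and 8.49 in tumors, against 9.57, 9.51, 8.72 and 9.13 in normals. Tumor 2 lay within the normal range and the other tumors below it. The difference was -0.72 ± 0.33 (limma adjusted p = 0.173). Of 9 urea cycle and ornithine genes tested, 2 were higher and 2 lower in tumors (7.0% and 7.54% of all genes), with a median of 0.17. Otc, ornithine transcarbamylase of the matrix, differed by -2.94 ± 0.61 (limma adjusted p = 0.0248), and Oat, ornithine aminotransferase, by -0.91 ± 0.18 (0.0225). Arg1, the cytosolic arginase that makes ornithine, differed by 2.71 ± 0.63 (limma adjusted p = 0.0323), and Odc1, which turns ornithine into putrescine, by 0.77 ± 0.16 (0.0248). The remaining amino acid carriers, Slc25a2, Slc25a29, Slc25a38 and Slc25a44, did not pass. Slc25a2 differed by 0.56, and by 0.92 without normal 3 (limma adjusted p = 0.0257). In normal 1 its level of 7.43 lay under that column's own value for dim probes, 7.70, so these sizes are not well measured.

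Iron and glutathione carriers had 0 of 4 called (14.5% of all genes) and a median difference of 0.12. Slc25a37, mitoferrin 1, which brings iron into mitochondria for heme in red cell precursors, had log2 levels of 13.19, 12.94, 12.15 and 14.11 in tumors, against 12.94, 12.89, 12.98 and 12.38 in normals. Tumor 4 was the highest sample and normal 4 the lowest normal, and the groups overlapped. The same 2 samples were highest among tumors and lowest among normals for erythroid markers, whose means were 10.98, 11.11, 10.60 and 11.77 in tumors and 10.80, 10.04, 11.33 and 8.70 in normals. The difference was 0.30 ± 0.39 (limma adjusted p = 0.570), and the part of red cells in it was not tested. A second, dimmer probe was highest among tumors in tumor 3 (8.14, against 7.72 in tumor 4) and lowest among normals in normal 4 (7.32). It differed by 0.10 ± 0.22 (limma over all probes, adjusted p = 0.734).

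Slc25a39, a glutathione carrier, had log2 levels of 15.61, 15.78, 15.62 and 15.71 in tumors, against 15.69, 15.55, 16.06 and 15.60 in normals. The tumors lay inside the range of the normals, and the difference was -0.05 ± 0.15 (limma adjusted p = 0.827). Slc25a40, its close relative, differed by -0.70 ± 0.22 (limma adjusted p = 0.0716), and by -0.90 without normal 3 (limma adjusted p = 0.0052). Slc25a28, mitoferrin 2, differed by 0.29 ± 0.16 and did not pass.

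The last members are relatives of the uncoupling proteins, an outer membrane protein and carriers of less defined substrate. Of these 7, 0 passed, against 14.5% of all genes. Slc25a46, an outer membrane protein tied to mitochondrial shape, had log2 levels of 14.32, 14.29, 14.23 and 14.37 in tumors, against 14.60, 14.60, 14.54 and 14.55 in normals. The groups did not overlap and each was tight, and the difference was -0.27 ± 0.11 (limma adjusted p = 0.129). Its dimmer probes differed by -1.07 ± 0.22 (limma over all probes, adjusted p = 0.0248) and -1.12 ± 0.33 (0.0616, and 0.0497 with the block), so its probes disagreed in call. Slc25a30, a relative of the uncoupling proteins, had probes at 0.06 and -0.20 that disagreed in sign. Slc25a14 and Slc25a27, of the same branch, differed by 0.17 and -0.37. Slc25a34 and Slc25a35, whose substrates are not settled, differed by 0.93 and -0.40, and by 1.46 and -0.58 without normal 3 (limma adjusted p = 0.0291 and 0.0231). Slc25a43, of the same kind, differed by -0.35, and by -0.88 without normal 3 (limma adjusted p = 0.0365). Its probe was below the detection limit in 3 tumors and in normal 3. It was kept for testing mainly through the other normals, so that call is no separate support. The size of either difference is not well measured.

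**Figure D3:**
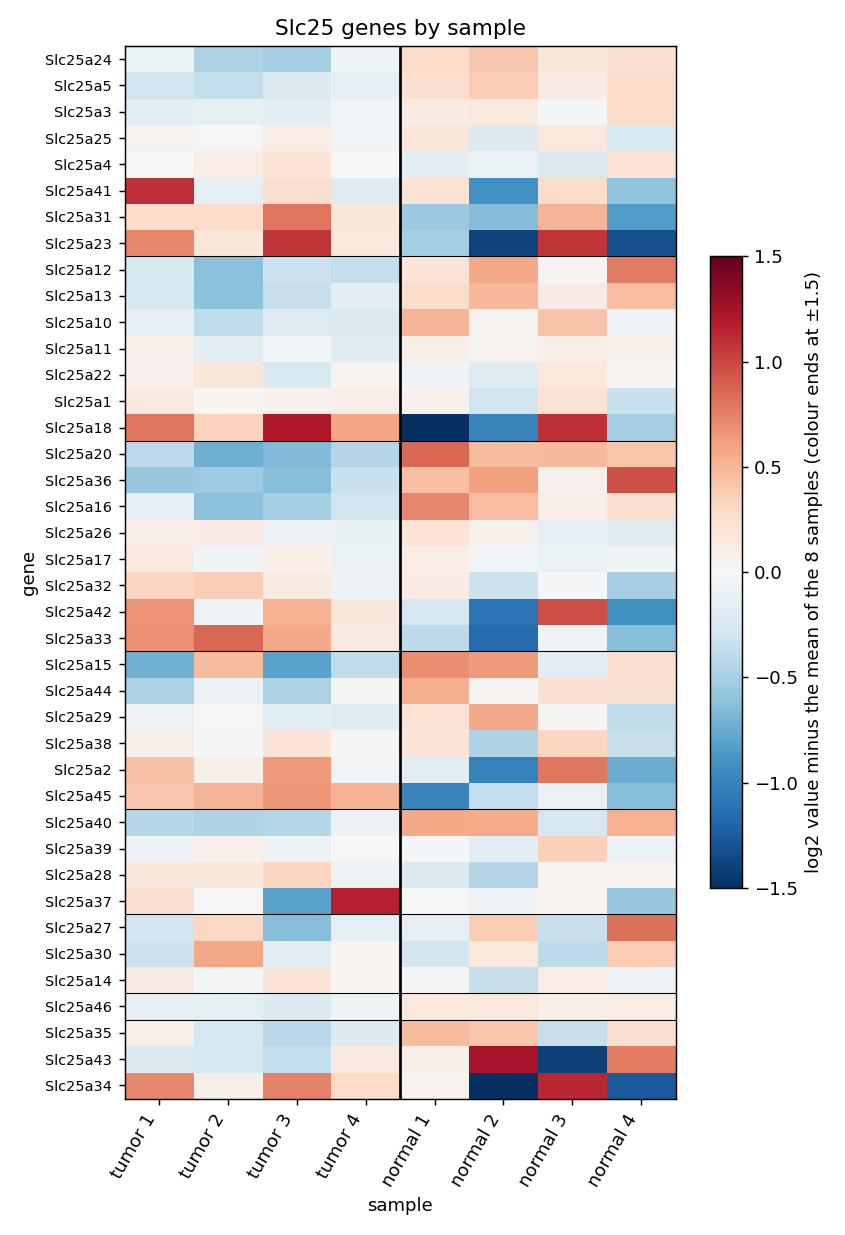
Log2 level of 40 tested Slc25 genes in each of the 8 samples, as the deviation from the gene's own mean over the samples, with the tumors on the left and genes ordered by role. The 7 genes called lower in tumors are below their own mean in all 4 tumors.

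Over all 62 probes kept, 13 passed (21.0%, against 13.4% of all probes; limma over all probes). In tumors 3 were higher and 10 lower, where 5.62% of all probes were higher and 7.83% lower. The 10 include the second Slc25a12 probe, kept only through the normals. In 17 genes more than 1 probe was kept. The signs of the probes differed in 3 of them, Slc25a17, Slc25a25 and Slc25a30, and the call in 2, Slc25a24 and Slc25a46. In 0 genes were probes called in both directions. Of the 21 dimmer probes of these genes, 18 had a larger absolute difference than the brightest probe and 16 a more negative one, against 60.2% and 64.9% of the 10233 dimmer probes of all genes.

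Related members were compared within each array in 7 pairs, by an exact two-sided permutation test over the 8 samples, whose smallest p is 0.0286. Slc25a33 against Slc25a36 differed by 2.17 in log2, with no overlap between tumors and normals (exact permutation p = 0.0286, adjusted over the 7 pairs 0.0667). That outcome was fixed in advance, since each gene alone had no overlap, in opposite directions, so it adds nothing to the 2 calls. Slc25a4 against Slc25a5 differed by 0.65, and Slc25a24 against Slc25a25 by -0.63, each also without overlap (exact permutation p = 0.0286, adjusted 0.0667). Slc25a5 and Slc25a24 had no overlap alone, and their partners differed by only 0.14 and 0.06. These 2 outcomes therefore largely repeat those calls and are no separate support. Slc25a12 against Slc25a13 differed by -0.09 (exact permutation p = 0.543, adjusted 0.633). None of the 7 pairs passed at an adjusted p of 0.05. A pair at the smallest p could pass only if most of the 7 pairs had it too. That no pair passed therefore does not show that relatives changed alike.

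Partners of the carriers were counted in the same limma fit, where 26 of 108 listed genes passed (24.1%, against 14.5% of all genes). Of these, 9 were higher and 17 lower in tumors, where 7.0% of all genes were higher and 7.54% lower. With the block 16 passed (14.8%, against 8.64% of all genes). Of 9 carnitine shuttle genes 3 were lower in tumors and 0 higher (7.54% and 7.0% of all genes), with a median of -0.17. Cpt1a, which loads fatty acids onto carnitine at the outer membrane, had log2 levels of 13.24, 12.77, 13.21 and 13.47 in tumors, against 14.04, 14.23, 14.12 and 14.33 in normals. All tumors lay below all normals, by -1.01 ± 0.17 (limma adjusted p = 0.0186). Crat, carnitine acetyltransferase, differed by -0.87 ± 0.16 (limma adjusted p = 0.0200), and Slc22a5, which takes carnitine into the cell, by -0.66 ± 0.13 (0.0231, and 0.0542 with the block). Cpt2, which acts just after Slc25a20, differed by -0.12 ± 0.16 and did not pass (limma adjusted p = 0.575).

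Of 15 regulators of mitochondrial biogenesis 3 were lower in tumors and 0 higher (7.54% and 7.0% of all genes). Ppargc1b, a coactivator of oxidative genes, differed by -1.85 ± 0.33 (limma adjusted p = 0.0197). Ppara, a receptor that drives fatty acid oxidation genes, differed by -2.32, and Ppargc1a by -1.48. The median over this list was -0.13. Of 12 heme and iron-sulfur genes, with a median of 0.12, 1 was lower (7.54% of all genes). It was Fech, which inserts iron into heme, at -0.89 ± 0.18 (limma adjusted p = 0.0231, and 0.0520 with the block).

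The mitochondrial import machinery also inserts carriers into the inner membrane. Of its 26 listed genes, 4 were higher in tumors and 0 lower (7.0% and 7.54% of all genes), with a median of 0.39. With the block 0 passed, against 8.64% of all genes. Hspe1 and Hspd1, the matrix chaperonin, differed by 1.08 ± 0.25 and 0.63 ± 0.17 (limma adjusted p = 0.0332 and 0.0481). Timm22, the channel through which carriers are inserted, differed by 0.72 ± 0.20 (limma adjusted p = 0.0499). Timm13, a chaperone of the intermembrane space, differed by 0.69 ± 0.18 (0.0448). Of 18 other mitochondrial carriers and channels, 7 were lower and 0 higher (7.54% and 7.0% of all genes), with a median of -0.51. With the block 2 were lower, Ppif and Sfxn5, and 1 higher, Tspo (5.03% and 3.6% of all genes). Ppif, the matrix cyclophilin of the permeability transition, differed by -1.34 ± 0.24 (limma adjusted p = 0.0199). Sfxn5, a sideroflexin, differed by -1.07 ± 0.24 (0.0309). Abcb6, a porphyrin transporter, differed by -0.73 ± 0.16 (0.0257, and 0.0508 with the block).

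Of 16 one-carbon and glutamine genes 3 were higher in tumors and 1 lower (7.0% and 7.54% of all genes), with a median of 0.22. Gls2, a glutaminase, had log2 levels of 11.44, 11.70, 11.91 and 11.01 in tumors, against 8.64, 9.05, 10.04 and 8.80 in normals. The groups did not overlap, normal 3 was the highest normal, and the difference was 2.38 ± 0.34 (limma adjusted p = 0.0149). Pycr1, which makes proline in mitochondria, differed by 2.10 ± 0.38 (limma adjusted p = 0.0199), and Shmt2, which makes one-carbon units there, by 1.04 ± 0.23 (0.0285). Got1, the cytosolic aminotransferase of the malate-aspartate shuttle, differed by -0.72 ± 0.17 (limma adjusted p = 0.0316, and 0.0573 with the block). Of 5 uncoupling proteins and outer membrane relatives listed under other names, 3 were tested and 0 passed, against 14.5% of all genes. Ucp2 differed by -0.77 ± 0.27 (limma adjusted p = 0.0984, and 0.0423 with the block).

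The genes with levels most like those of Slc25a20 over the 8 samples, among 17444 named genes ranked, were Olfr165 (Pearson r = 0.9957), 4921531C22Rik (0.9946), Mettl24 (0.9920), Cep83os (0.9908) and Plekha8 (0.9883). These correlations are descriptions, since the points share the group difference and the normalisation. Among members, Slc25a46 was most like it at 0.97 and Slc25a45 least at -0.95.

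**Figure D4:**
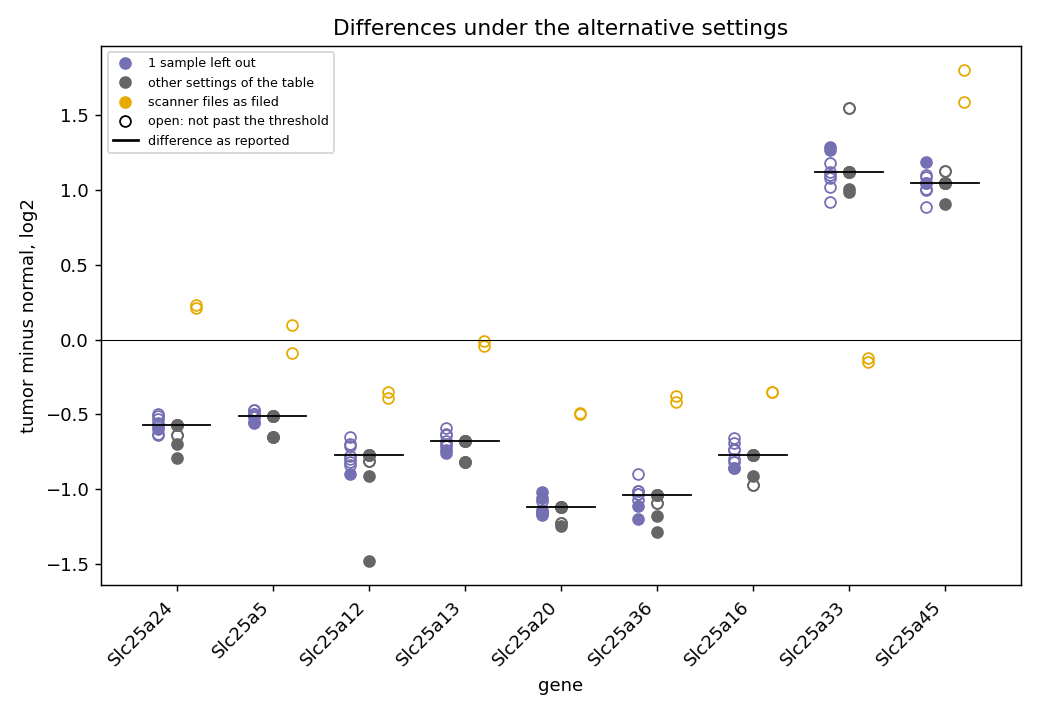
Log2 difference, tumor minus normal, of each of the 9 called Slc25 genes under each alternative setting, filled where the adjusted p was under 0.05, with a line at the difference as reported. Every gene keeps its sign in the settings of the value table, most of which could not turn groups that do not overlap. With the scanner files as filed Slc25a24 and Slc25a33 turn in both settings and Slc25a5 in 1. Counting the fit as reported, Slc25a20 passes in 14 of 17 settings of the value table and Slc25a12 and Slc25a24 in 6.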

How the data were processed

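The 8 deposited scanner files hold spot intensity values, with the background subtracted and a spatial trend removed, per the file headers, which name Agilent Feature Extraction 9.5.1.1; the submitters' processing notes name 10.1.1.1. The share of probes well above background was 55.6% to 82.8%, and 0 member spots were saturated. The deposited value table is log2, quantile-normalised by the authors: median 8.51 and 75th percentile 11.40 in all columns. Its scale and normalisation were found from the values, and the direction of each column is its label.

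Probes were named through RefSeq (GRCm38.p6): 24375 by accession, 6301 by symbol and 2426 by synonym, while 8072 kept the file's name. Probe coordinates are mm8, per the file headers. Exon annotation of that build was not used here. A probe was kept at or above a log2 level of 5.59 on at least 4 of 8 arrays, and the brightest kept probe stood for a gene. That limit is the median of 4 values, 1 per traced column, each the level under which 95% of the probes lie that the scanner did not flag as well above background. They were 4.50 and 5.35 in tumors 1 and 2, and 7.70 and 5.82 in normals 1 and 2, so dim levels in normal 1 are the least certain. Differences were tested in limma 3.58.1 (R 4.3.3; lmFit and eBayes) with Benjamini-Hochberg adjustment over 21638 genes, or 31871 probes where probes are given, and a threshold of 0.05. The fit was tested on simulated data. Values after ± are SE for differences and SD for means.

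Samples share numbers across groups, and equally numbered samples deviated together (correlations 0.238, 0.356, 0.534 and 0.362). Unequally numbered ones ran from -0.507 to 0.379, and some were as high. A fit with the number as a block is given where it changes a call. The 2 pairs with traced columns each shared a slide.

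Members and lists were chosen with earlier results of these data known. Values are given for each called member, each member whose groups do not overlap or whose probes differ in sign or call, and a fixed set of carriers; other members are given by counts and ranges, and those singled out beyond this were chosen after their values were seen. Up to 4 called genes of each pathway list are named, by size. Some genes are not reported here. The number of arrays limits the precision.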

Additional observations from a re-analysis of the deposited data

Results flagged for a closer look

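Within groups of 4, a sample far from the other 3 was found in 5 of 82 groups, where chance flags about 1 in 20 groups. Tumor 4 stood alone for Slc25a3 at a log2 level of 16.47 (other tumors 16.35 to 16.37) and for Slc25a40 at 11.02 (10.65 to 10.68). Normal 1 stood alone for Slc25a20 at 14.91 (other normals 14.47 to 14.54). Normal 4 stood alone for Slc25a37 at 12.38 (12.89 to 12.98). Normal 3 stood alone for Slc25a40 at 10.86 (11.63 to 11.68).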

How the results depend on the processing

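The 9 called genes kept their direction in all 17 settings of the value table. Since their groups did not overlap, only the mean of probes and the centring could have turned a sign. With the replicate number as a block, 3 Slc25 genes, 1869 of all genes and 16 pathway genes passed. With only the 4 traced columns, with or without the slide as a block (the slide was added after seeing the data), and with the scanner files as filed, 0 Slc25 genes, probes, pathway genes and all genes passed in limma. At an unadjusted p under 0.05, Slc25 genes then numbered 10, 12, 2 and 3 (traced columns, with slide, 75th percentile, normexp), probes 21, 24, 2 and 3, pathway genes 25, 24, 1 and 1, and all genes 4817, 7359, 433 and 510. Leaving out 1 sample gave 0 to 18 Slc25 genes, 0 to 29 probes, 0 to 52 pathway genes and 21 to 11136 of all genes. Slc25 counts were 7 without the filter (16.7%, against 8.58% of all genes), 9 with the limit on all arrays (23.7%, against 20.9%), and 10 (24.4%) with the mean of probes, centring or a trend (12.6%, 14.3% and 18.5% of all genes). Centring each column on its median split all calls into 1073 higher and 2016 lower, against 1515 and 1632. Signs turned with the 75th percentile for Slc25a5 (0.10), Slc25a10 (0.19), Slc25a15 (1.25), Slc25a24 (0.23), Slc25a32 (-0.10) and Slc25a33 (-0.15). With normexp they turned for Slc25a4 (-0.01), Slc25a10 (0.21), Slc25a15 (1.04), Slc25a24 (0.21), Slc25a32 (-0.10) and Slc25a33 (-0.12). Centring turned Slc25a22 (-0.10) and Slc25a25 (-0.08), the mean of probes Slc25a25 (-0.42), and the traced columns Slc25a39 (0.08 in both fits). With 1 sample left out, Slc25a22 ran from -0.03 to 0.12, Slc25a25 from -0.01 to 0.13, Slc25a37 from -0.04 to 0.62 and Slc25a39 from -0.10 to 0.06. The causes were not tested.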
